A study of Mus musculus with 24 samples.

Results

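The insulin-like growth factor binding proteins (IGFBPs) were followed in cells sorted from mouse embryoid bodies, clumps of embryonic stem cells that differentiate in suspension. The members were the genes Igfbp1 to Igfbp7, taken by gene symbol: 7 of 18120 symbols on the array, with 10 of its 25697 probes. The family was chosen by the rise of Igfbp5 after induction, so the induction values of Igfbp5 are given as a description with no test, while the other 6 members came in with the family name. The cells were of the Ainv15 embryonic stem cell line and carried ICN1, the intracellular domain of the receptor Notch1, under control of doxycycline. All 8 groups shared this line and transgene. In the 4 induced groups ICN1 was switched on from day 3 to day 5 of differentiation, and in the 4 non-induced groups it was not. All cells were harvested on day 6 and sorted by flow cytometry into fractions that the labels name CD41 sp, VE sp, DP and DN without spelling the names out. Each group had 3 replicate arrays, 24 in all. The labels do not say whether replicates came from separate cultures, and the p-values therefore reflect the spread among arrays, some of which may be technical. Every induced group received doxycycline, so the drug and ICN1 cannot be told apart.

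IGFBPs are secreted proteins that bind the growth factors IGF1 and IGF2. Bound IGF cannot reach its receptor until it is released, often after a protease has cut the binding protein, so an IGFBP can hold back, store or deliver the growth factor. IGFBP5 and IGFBP3 also bind extracellular matrix, IGFBP4 is cut by the protease PAPP-A, and IGFBP7 binds IGFs only weakly and is found in the matrix around blood vessels. Igfbp2 and Igfbp5 are neighbouring protein-coding genes on chromosome 1, as are Igfbp1 and Igfbp3 on chromosome 11. Igfbp4 also lies on chromosome 11, Igfbp6 on chromosome 15 and Igfbp7 on chromosome 5.

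The sequences around the start sites of 3 members are shown because these genes had unlike patterns below: Igfbp5 was higher after induction in all fractions, its neighbour Igfbp2 was not, and Igfbp4 had the steepest differences between fractions. They are RefSeq windows of assembly GRCm38.p6, from 250 bases before to 50 bases after the start, written 5′ to 3′ along the gene. Capitals mark matches, on either strand, to any of 3 motifs. The first, TGGGAA, is the core recognised by RBPJ, the DNA-binding partner of ICN1. The second, CACGTG, is an E-box, read by basic helix-loop-helix factors. The third, TATAAA, is a TATA box. These motifs do not overlap one another in the windows shown.
Igfbp5 (chr1:72874816-72875115, minus strand): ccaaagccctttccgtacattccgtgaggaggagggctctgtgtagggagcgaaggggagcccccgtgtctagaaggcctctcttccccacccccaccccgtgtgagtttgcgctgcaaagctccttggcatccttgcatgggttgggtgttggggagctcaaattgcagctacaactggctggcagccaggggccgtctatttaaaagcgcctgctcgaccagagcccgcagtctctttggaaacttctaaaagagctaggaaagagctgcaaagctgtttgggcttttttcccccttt
Igfbp2 (chr1:72824230-72824529, plus strand): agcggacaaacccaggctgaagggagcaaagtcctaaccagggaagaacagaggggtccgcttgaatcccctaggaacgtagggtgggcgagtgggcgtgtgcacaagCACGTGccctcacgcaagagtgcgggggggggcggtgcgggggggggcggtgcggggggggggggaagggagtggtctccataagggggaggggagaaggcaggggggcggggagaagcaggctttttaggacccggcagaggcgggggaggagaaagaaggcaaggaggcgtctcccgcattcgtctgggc
Igfbp4 (chr11:99040994-99041293, plus strand): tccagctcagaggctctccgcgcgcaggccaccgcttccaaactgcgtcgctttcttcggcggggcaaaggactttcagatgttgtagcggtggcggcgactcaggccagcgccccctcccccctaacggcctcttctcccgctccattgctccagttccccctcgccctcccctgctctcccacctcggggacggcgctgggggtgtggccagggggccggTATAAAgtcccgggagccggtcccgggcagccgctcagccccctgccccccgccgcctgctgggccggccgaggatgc
All 7 members had a window, and Igfbp2 had a second one. TGGGAA was in none of these windows, against 25.6% of 32851 windows of all genes, which says only that these letters are not in this stretch. The capitals in the Igfbp2 window mark an E-box 142 bases before the start, a motif held by 7.15% of all windows. Those in the Igfbp4 window mark a TATA box 28 bases before the start, and Igfbp6 held this motif in the reverse direction at position -148 from its start. It occurs in either direction in 13.6% of all windows. The Igfbp5 window held no match to any of the 3 motifs, and its GC content was 56.3%, against 67% in that of Igfbp2, 71.3% in that of Igfbp4 and a median of 52.7% over all windows.

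Mean raw intensities per array ran from 165 to 656, and 3 arrays lay under 250: non-induced VE sp replicate 3, induced CD41 sp replicate 2 and induced DP replicate 2. Arrays of 1 replicate number deviated together, as a set. In set 2 all induced arrays, at 198 to 314, were dimmer than all non-induced ones, at 425 to 474. Array brightness and induction thus went together in that set, while in sets 1 and 3 the ranges overlapped. A probe was taken as detected on an array at a detection p under 0.05, and 9591 genes had a probe detected on all 3 arrays of at least 1 group. Of the sort markers, Itga2b, which encodes CD41, was highest in DP and CD41 sp (mean log2 levels of 11.37 ± 0.21 and 11.1 ± 0.32 SD, n = 3, non-induced) and lowest in DN (8.02 ± 0.14). The VE-cadherin gene Cdh5 was at 10.47 ± 0.62 in non-induced VE sp and 9.75 ± 0.34 in DP and was detected on no array of CD41 sp or DN, induced or not. In these bulk fractions, fewer cells of a type and less RNA per cell cannot be told apart.

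Of the 7 members, 5 passed the detection filter and 2 did not. Igfbp1, a binding protein best known from the liver, was detected on 0 of 24 arrays, with raw intensities of 40.35 to 66.35. Igfbp6, which prefers IGF2 to IGF1, was also detected on 0 of 24 arrays, with raw intensities of 43.38 to 68.8. Igfbp4 and Igfbp5 were detected on all 24 arrays, Igfbp3 on 20, Igfbp2 on 16 and Igfbp7 on 13. Where a gene had more than 1 passing probe, the brightest was used. The second probes of Igfbp2 and Igfbp4 followed the first, with Pearson correlations of 0.955 and 0.986 over the 24 arrays, while the second probe of Igfbp7 was detected on 0 of 24 arrays and correlated at -0.0248. Everything on Igfbp7 therefore rests on 1 of its 2 probes.

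Igfbp5 was higher in induced than in non-induced cells in every fraction. Levels are given as log2 normalised intensity, in the order of replicates 1, 2 and 3. In CD41 sp, Igfbp5 was at 7.06, 5.99 and 7.10 without induction and at 9.18, 8.49 and 9.34 with it. In VE sp it was at 10.48, 8.28 and 8.91 without and at 12.35, 11.56 and 12.24 with induction. The VE sp arrays thus held both the highest induced levels and the widest non-induced spread. In DP it was at 8.47, 7.48 and 8.34 without and at 10.88, 10.16 and 10.21 with induction. In DN it was at 10.46, 8.67 and 9.95 without and at 11.67, 10.57 and 11.69 with induction. The lowest induced array lay above the highest non-induced array in each of the 4 fractions, and Igfbp5 was higher in 12 of 12 differences between arrays of the same fraction and replicate number. Replicate 2 was the lowest of its group for Igfbp5 in 8 of 8 groups, in induced and non-induced cells alike.

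**Figure D1:**
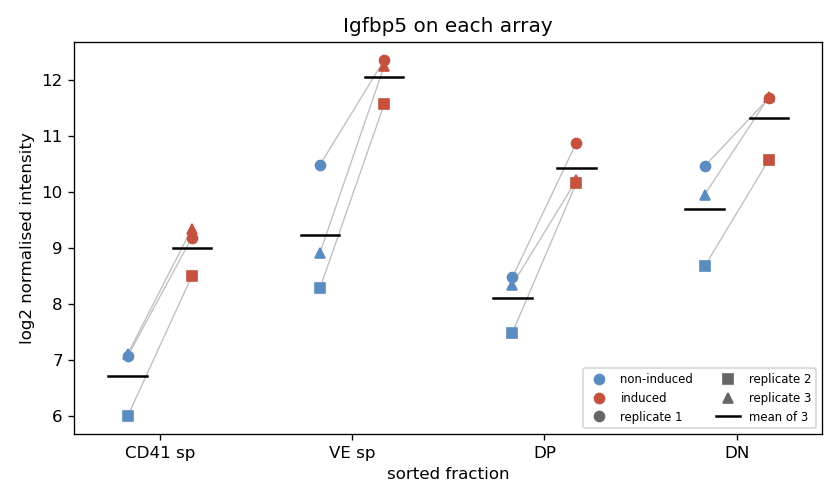
Igfbp5 on each of the 24 arrays, as log2 normalised intensity by sorted fraction. Symbols are arrays, black bars are means of 3, and grey lines join arrays of the same replicate number; every line climbs, from non-induced levels of 5.99 to 10.48 to induced levels of 8.49 to 12.35.

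These values gave mean log2 differences for Igfbp5 of 2.83 in VE sp (SD 0.83 over the 3 replicate numbers), 2.32 in DP (SD 0.41), 2.29 in CD41 sp (SD 0.19) and 1.62 in DN (SD 0.36). As folds these were 7.10, 4.98, 4.89 and 3.07. The average over fractions was 2.26, or 4.80-fold. Ranked by the size of the rise among 9591 genes, Igfbp5 held rank 2 in DP, rank 4 in VE sp, rank 5 in CD41 sp, rank 27 in DN and rank 3 on average. The VE sp difference was 3.46 without non-induced VE sp replicate 1, the highest of its group. The smallest difference was in DN, one of the fractions where the non-induced level was highest, and it ranged from 1.11 (without non-induced DN replicate 2) to 2.00 (without non-induced DN replicate 1). Because the family was selected on this rise, none of these values carries a test, and whether the rise differed among fractions was not tested for Igfbp5.

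Of the members tested for induction, limma called only Igfbp7 higher on average over the fractions. With the replicate number as a block it called Igfbp3 as well. The call of Igfbp7 without the block depended on single arrays and on the processing. In VE sp Igfbp7 was at 5.33, 6.91 and 5.48 without induction and at 7.28, 9.17 and 6.38 with it. In DN it was at 4.76, 5.44 and 4.80 without, where 1 of 3 arrays was above background, and at 6.71, 7.50 and 6.34 with induction. All 3 induced arrays exceeded all 3 non-induced arrays in DN, whereas the groups overlapped in VE sp. In DP, where 1 non-induced and 2 induced arrays were above background, the levels were 4.70, 4.94 and 4.56 without and 6.13, 5.41 and 4.46 with induction. In CD41 sp Igfbp7 was not detected on any array of either condition, so no fold is given. The average log2 change of the normalised intensities was 1.05 ± 0.26 (SE), with limma's adjusted p = 0.033, and 0.00238 with the replicate number as a block. This average includes CD41 sp, where neither condition was above background, and baselines in DP and DN mostly at background, so no fold is given for it.

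Within fractions, limma gave Igfbp7 a log2 change of 1.85 ± 0.53 in DN and 1.70 ± 0.53 in VE sp, which did not pass the threshold of an adjusted p under 0.05 (adjusted p = 0.147 and 0.188) but did with the block (adjusted p = 0.0161 and 0.0219). In DP the change was 0.60 ± 0.53 (adjusted p = 1). The average change of Igfbp7 lost its call in limma without any 1 of 14 arrays, at adjusted p = 0.0505 to 0.0658 and changes of 0.95 to 1.06. These arrays were replicates 2 and 3 of non-induced CD41 sp, 1 and 3 of non-induced VE sp, DP and DN, all 3 of induced CD41 sp, 1 and 2 of induced DP and 2 of induced DN. The VE sp change depended on single arrays: it was 0.92 without induced VE sp replicate 2, the highest array (limma adjusted p = 0.871), and 2.32 without induced VE sp replicate 3, the lowest induced one (0.0402).

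Igfbp3, the main IGF carrier of blood plasma, moved in the same direction with a smaller change. In VE sp its levels were 8.09, 7.41 and 6.67 without induction and 8.93, 8.60 and 8.32 with it. In CD41 sp they were 5.85, 5.19 and 4.57 without, the last below detection, and 6.58, 5.92 and 6.24 with induction. The groups did not overlap in either of these fractions. In DP and DN they did, with levels of 4.96 to 5.69 against 4.70 to 6.84 in DP and of 5.01 to 6.46 against 5.4 to 6.58 in DN. The log2 change was 1.23 ± 0.49 in VE sp, 1.04 ± 0.49 in CD41 sp, 0.47 ± 0.49 in DP and 0.18 ± 0.49 in DN, none of which passed in limma (adjusted p = 0.491, 1, 1 and 0.987). The VE sp change passed with the block (adjusted p = 0.0126) and the CD41 sp change did not (0.0872). The average change of Igfbp3 was 0.73 ± 0.25, or 1.66-fold, with limma's adjusted p = 0.141, and 0.00174 with the block. This average includes arrays on which Igfbp3 was below detection. Leaving out induced DP replicate 3, where Igfbp3 was below detection, gave 0.86 (limma adjusted p = 0.0485).

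Igfbp2 and Igfbp4 did not pass the test for induction in any fraction or on average, with or without the block. Igfbp2, a binding protein of many embryonic tissues, was at 8.97, 7.52 and 8.33 in non-induced DN and at 7.82, 6.45 and 8.12 in induced DN. It was lower in 3 of 3 same-numbered DN differences, by a log2 change of -0.81 ± 0.44, but the groups overlapped (limma adjusted p = 0.844; 0.143 with the block). In VE sp its change was 0.35 ± 0.44, and in CD41 sp and DP it was near background. Igfbp4 changed by -0.48 ± 0.26 in DP, where the levels were 11.49, 11.67 and 11.68 without and 10.98, 11.41 and 11.02 with induction. Those 2 groups did not overlap, yet the change did not pass (limma adjusted p = 0.986; 0.257 with the block). Its changes elsewhere were 0.19 ± 0.26 in VE sp, 0.03 ± 0.26 in DN and -0.08 ± 0.26 in CD41 sp. On average Igfbp4 changed by -0.09 ± 0.13 and Igfbp2 by -0.13 ± 0.22.

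**Figure D2:**
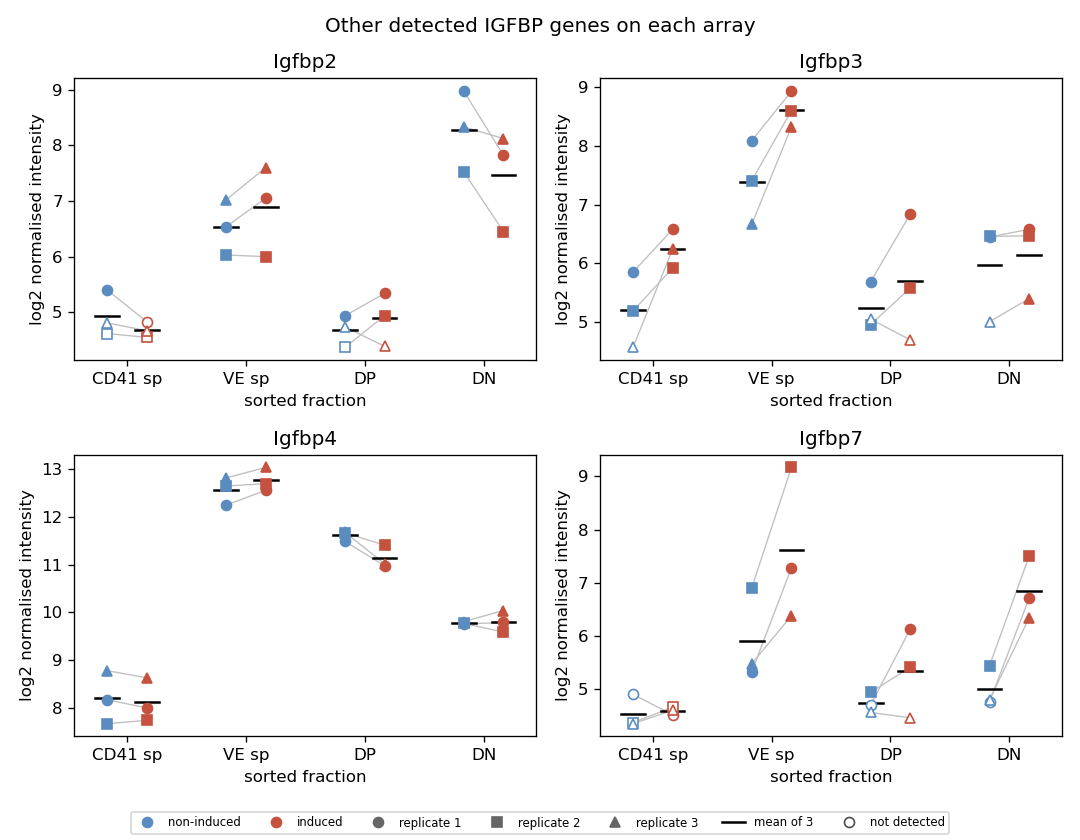
Igfbp2, Igfbp3, Igfbp4 and Igfbp7 on each array, as log2 normalised intensity by fraction, each panel with its own scale. Filled symbols are detected arrays, open symbols are arrays not above background, black bars are means of 3, and grey lines join the same replicate number; Igfbp4 lay between 7.67 and 13.04 with little shift by induction, and Igfbp7 climbed in VE sp and DN.

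Counted over the 6 members other than Igfbp5, of which 4 were measured above background in at least 1 group, limma called 0 for induction in CD41 sp, 0 in VE sp, 0 in DP and 0 in DN. At an unadjusted p under 0.05 the counts were 1, 2, 0 and 1. Over all tested genes, 0.0938% were called in CD41 sp, 1.12% in VE sp, 0.146% in DP and 0.97% in DN, so few genes of any kind passed within a fraction. With the block, 0, 2, 0 and 1 members were called, all higher, against 0.918%, 4.33%, 1.63% and 4.09% of all genes. On average over fractions 1 of the 6 was called, Igfbp7, against 3.02% of all genes, and with the block 2, Igfbp7 and Igfbp3, against 12.8%. The F test for a response that differed among fractions called 0 of the 6, at an adjusted p of 1 for each of the 4 tested and with 0 at an unadjusted p under 0.05, against 0.177% of all genes. With the block it also called 0, with adjusted p from 0.205 to 0.479, against 2.14%. With 3 arrays a group the precision is limited, and the changes of Igfbp7 had standard errors of 0.53 within a fraction.

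**Figure D3:**
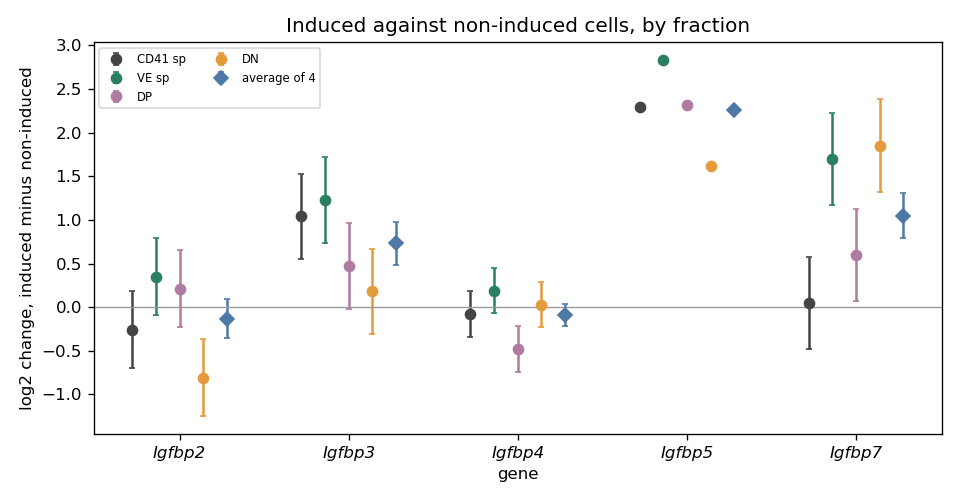
Log2 change of each detected member, induced minus non-induced, in each fraction (circles) and averaged over the 4 fractions (diamonds), with limma's standard error as bars. Igfbp5, which the family was chosen by, is drawn with no error; its values run from 1.62 to 2.83, and those of the other members from -0.81 to 1.85.

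The fractions were then compared within each condition, and every member above background was tested. The family was not picked on a comparison of fractions, but Igfbp2 and Igfbp7 passed the detection filter only through VE sp and DN. Their lower levels in CD41 sp and DP were thus favoured in advance, and the p-values of those pairs are descriptive. Igfbp4 followed 1 order in both conditions: VE sp, then DP, then DN, then CD41 sp. Its non-induced levels were 12.25, 12.65 and 12.82 in VE sp, 11.49, 11.67 and 11.68 in DP, 9.76, 9.77 and 9.81 in DN, and 8.17, 7.67 and 8.78 in CD41 sp. No array of 1 fraction reached the range of the next. CD41 sp differed from VE sp by -4.37 ± 0.26 and from DN by -1.57 ± 0.26 (limma adjusted p = 2.97e-11 and 9.54e-05), and DP differed from VE sp by -0.96 ± 0.26, the smallest step (adjusted p = 0.0156). That step lost its call without non-induced VE sp replicate 2 or 3 or non-induced DP replicate 1 (limma adjusted p = 0.0582 to 0.0804, changes of -0.92 to -0.84). It was also lost with median scaling, the authors' processed values, without the 3 arrays under 250 and without replicate set 2 (adjusted p = 0.582, 0.0778, 0.0688 and 0.095). In induced cells the levels were 12.56, 12.70 and 13.04 in VE sp, 10.98, 11.41 and 11.02 in DP, 9.79, 9.59 and 10.04 in DN and 8, 7.74 and 8.63 in CD41 sp. All 6 pairs of fractions passed for Igfbp4 in induced cells too, the smallest difference being 1.33 ± 0.26 between DP and DN (adjusted p = 0.000464).

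Igfbp2 had another order, with DN highest and VE sp next. These were also the fractions through which Igfbp2 passed the filter, so its tests against CD41 sp and DP are descriptive. In non-induced cells its DN levels were those given above, and VE sp was at 6.54, 6.03 and 7.02. CD41 sp was at 5.4, 4.62 and 4.81 and DP at 4.94, 4.37 and 4.74, each with 1 of 3 arrays above background. DN did not overlap VE sp, and VE sp did not overlap the 2 lowest fractions, which overlapped each other. VE sp differed from DN by -1.74 ± 0.44 on the log2 scale (limma adjusted p = 0.00493), DP from VE sp by -1.85 ± 0.44 (0.00646), and CD41 sp from DP by 0.26 ± 0.44 (0.829). Without the 3 arrays under a mean raw intensity of 250, the differences of DP and CD41 sp from VE sp were -1.60 and -1.35 and did not pass (adjusted p = 0.0618 and 0.0628). They also did not pass with median scaling (0.0912 and 0.0747) or the authors' processed values (0.276 and 0.239), which lost VE sp against DN as well (0.0616) and, in induced cells, DP against VE sp (0.139). In induced cells DN and VE sp were closer, at levels of 6.45 to 8.12 and 6.00 to 7.60, and their difference of -0.58 ± 0.44 did not pass (adjusted p = 0.371, 0.138 with the block). On the second probe of Igfbp2 this difference was -0.78, with an adjusted p over all passing probes of 0.015 in limma, so the call depended on the probe. Igfbp2 was below detection on all 3 arrays of induced CD41 sp and was at least 5.55-fold higher in induced DN (limma adjusted p = 6.41e-05) and at least 3.71-fold higher in induced VE sp (0.000419). These bounds set the mean of the brighter group against the lowest signal detected on each array of the dimmer one, or the probe's own signal where that was higher.

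Igfbp3 was highest in VE sp in both conditions. In non-induced cells the other fractions lay at 4.57 to 5.85 in CD41 sp, 4.96 to 5.69 in DP and 5.01 to 6.46 in DN, and these ranges overlapped. In each of them Igfbp3 was detected on 2 of 3 arrays. CD41 sp and DP differed from VE sp by -2.18 ± 0.49 and -2.15 ± 0.49 (limma adjusted p = 0.00169 and 0.00514). Neither passed with median scaling (0.0593 and 0.179), the authors' processed values (0.0821 and 0.181) or without replicate set 2 (0.0634 and 0.188). VE sp differed from DN by 1.42 ± 0.49 (adjusted p = 0.0398), a call that was lost without non-induced VE sp replicate 1 or 2 or non-induced DN replicate 3 (adjusted p = 0.0889 to 0.231, changes of 0.94 to 1.41) and with those 3 settings, no detection filter or only the compared groups (0.0635 to 0.361). The lower fractions did not pass against each other in the fit without the block, and with it CD41 sp and DP were below DN, by -0.77 and -0.74 (adjusted p = 0.0427 and 0.042). In induced cells VE sp differed from DN by 2.47 ± 0.49 (limma adjusted p = 0.000616), while DP differed from VE sp by -2.91 ± 0.49 (0.000177) and CD41 sp by -2.37 ± 0.49 (0.000671). No array of another fraction reached the VE sp range in induced cells.

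Igfbp5 was lowest in CD41 sp and higher in DN and VE sp. In non-induced cells CD41 sp differed from DN by -2.98 ± 0.51 on the log2 scale and from VE sp by -2.51 ± 0.51 (limma adjusted p = 0.000171 and 0.000619). The latter was -1.88 without non-induced VE sp replicate 1 (adjusted p = 0.00655). DP lay between, and differed from DN by -1.59 ± 0.51 (adjusted p = 0.0268). That call was lost without non-induced DP replicate 2 or non-induced DN replicate 1 or 3 (adjusted p = 0.0917 to 0.151, changes of -1.47 to -1.21) and with median scaling, no detection filter or the authors' processed values (0.238, 0.0674 and 0.231). DP against VE sp, at -1.12 ± 0.51, and CD41 sp against DP, at -1.38 ± 0.51, did not pass (adjusted p = 0.216 and 0.0871) but did with the block (0.00381 and 0.000527). DN and VE sp were not separated in non-induced cells, at -0.47 ± 0.51 (adjusted p = 0.559, 0.159 with the block).

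In induced cells the mean level of Igfbp5 was highest in VE sp (12.05 ± 0.43 SD), followed by DN (11.31 ± 0.64), DP (10.41 ± 0.40) and CD41 sp (9.01 ± 0.46), n = 3 each. CD41 sp did not overlap any other fraction, and it differed from VE sp by -3.04 ± 0.51 and from DN by -2.31 ± 0.51 (limma adjusted p = 6.44e-05 and 0.00232). DP differed from VE sp by -1.64 ± 0.51 (adjusted p = 0.028). Without replicate 1 or 3 of induced VE sp or 2 or 3 of induced DP that call was lost (adjusted p = 0.0816 to 0.0956, changes of -1.54 to -1.48). It was also lost with median scaling, no detection filter, the authors' processed values or without the 3 arrays under 250 (0.0695 to 0.271). VE sp against DN, at 0.74 ± 0.51, DP against DN, at -0.90 ± 0.51, and CD41 sp against DP, at -1.41 ± 0.51, did not pass (adjusted p = 0.322, 0.265 and 0.0831) and passed with the block (0.0278, 0.0117 and 0.000457).

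Igfbp7 was highest in VE sp and DN among induced cells, and in non-induced cells VE sp was the only fraction with all 3 arrays above background. Those groups are the ones through which Igfbp7 passed the filter, so its tests against CD41 sp and DP are descriptive. Against CD41 sp, where it was not detected, Igfbp7 was at least 6.14-fold higher in induced VE sp (limma adjusted p = 0.000116) and at least 3.62-fold higher in induced DN (0.00405). The VE sp bound was 3.57-fold without induced VE sp replicate 2 and 9.41-fold without replicate 3, and the call was kept (adjusted p = 0.000907 and 1.65e-05). Induced DP differed from induced VE sp by -2.28 ± 0.53 (limma adjusted p = 0.00363) and from induced DN by -1.52 ± 0.53 (0.0468). The former was -1.50 without induced VE sp replicate 2 (adjusted p = 0.0338) and -2.89 without replicate 3 (0.000545), and was lost with only the compared groups (0.0713). The latter was lost without replicate 2 or 3 of induced DP or 1 or 2 of induced DN (adjusted p = 0.0852 to 0.228, changes of -1.59 to -1.08) and in 8 of the other alternatives (0.0638 to 0.272). Induced VE sp and DN were not separated (0.76 ± 0.53, adjusted p = 0.327, 0.147 with the block), and the difference was -0.02 without induced VE sp replicate 2 and 1.38 without replicate 3 (adjusted p = 0.985 and 0.0654). In non-induced cells Igfbp7 was at least 1.79-fold higher in VE sp than in CD41 sp (1.27-fold without non-induced VE sp replicate 2), which did not pass (adjusted p = 0.0585) and passed with the block (0.0109) or without non-induced VE sp replicate 1 (0.0428).

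For the counts by pair, only 5 of the 7 members were tested, and the shares of all genes are of the 9591 tested. In non-induced cells limma called 4 of the 7 members between CD41 sp and VE sp, all 4 lower in CD41 sp, against 28.8% of all genes, and 3 between DP and VE sp, all lower in DP, against 10.2%. It called 1 between CD41 sp and DP, Igfbp4, against 12.3%. Between CD41 sp and DN it called 3, all lower in CD41 sp, against 15.7%. Between VE sp and DN it called 3, with Igfbp3 and Igfbp4 higher and Igfbp2 lower in VE sp, against 24.7%. Between DP and DN it called 3, with Igfbp4 higher and Igfbp2 and Igfbp5 lower in DP, against 22.1%. With the block the counts in this order were 5, 4, 2, 4, 3 and 4, against 47.6%, 21.5%, 26.8%, 30.3%, 43.7% and 39.3% of all genes. These counts include Igfbp2, which passed the filter through VE sp and DN, where it is high, and so was bound to lie lower in CD41 sp and DP. The same holds for Igfbp7, which the block added between CD41 sp and VE sp.

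In induced cells limma called 5 of the 7 members between CD41 sp and VE sp, against 33.6% of all genes, and 5 between DP and VE sp, against 17.8%, all higher in VE sp. These 5 were all the members above background, and their count includes Igfbp2 and Igfbp7, which passed the filter through VE sp and DN. It called 1 between CD41 sp and DP, again Igfbp4, against 11.4%, and 4 between CD41 sp and DN, all lower in CD41 sp, against 15.7%. Between VE sp and DN it called 2, Igfbp3 and Igfbp4, both higher in VE sp, against 26.4%, and between DP and DN 3, against 20.7%. With the block the counts in this order were 5, 5, 2, 4, 3 and 4, against 52.3%, 37.1%, 25.7%, 28.6%, 46.2% and 35.5% of all genes. Pairs of fractions within a condition share arrays, so these counts are not independent.

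Markers of other cell types also differed between these fractions. The summed normalised intensity of 7 endothelial markers was 19914 to 33357 in non-induced VE sp and 10491 to 12492 in DP, against 983 to 1419 in CD41 sp and 293 to 383 in DN, where Cdh5 and Tie1 were not detected. That of 6 tested mesenchyme and matrix markers (of 7) was 2366 to 3462 in non-induced DN and 513 to 843 in VE sp, and at most 223 in CD41 sp and 160 in DP. That of 6 erythroid markers was 30876 to 44410 in non-induced CD41 sp and 24907 to 55853 in DN, against 537 to 964 in VE sp and 847 to 2315 in DP. That of 4 tested epithelial markers (of 5) was 4261 to 6633 in non-induced DN and at most 304 in the other fractions, and that of 5 platelet markers was 7456 to 23826 in CD41 sp, 4923 to 8165 in DP, 816 to 1139 in VE sp and 315 to 439 in DN. With induction, limma called 1 of the 6 mesenchyme and matrix markers higher on average, against 3.02% of all genes. With the block these were 2, beside 2 of the 6 erythroid markers, Slc4a1 and Alas2, against 12.8%. Of the 7 endothelial markers the block called 1, Esam1, higher on average. Within fractions, Esam1 was called higher in DN, against 0.97% of all genes. The block also called Alas2 higher in VE sp and Pdgfrb higher in DN, against 4.33% and 4.09%. Both tested visceral endoderm markers, Ttr and Apoa1 (of 5 listed), were lower in DN. The changes of these 2 in DN were -3.04 ± 0.50 and -1.99 ± 0.27 (limma adjusted p = 0.00224 and 0.000232). Averaged over fractions, their log2 changes were -1.63 ± 0.25 and -0.62 ± 0.14 (limma adjusted p = 0.000563 and 0.0119). The summed level of the visceral endoderm pair in DN was 720 to 2519 without and 132 to 266 with induction. The sort markers Itga2b and Cdh5 were not called for induction in any fraction, with or without the block, and their average changes were -0.06 ± 0.12 and -0.09 ± 0.15. The part of these cell types in the IGFBP levels was not tested.

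Among the ligands that the binding proteins hold, Igf2 was bright in all fractions and Igf1 differed steeply between them. Igf2 had mean log2 levels of 13.17 ± 0.10 (SD, n = 3) in non-induced CD41 sp, 14.73 ± 0.06 in DN, 15.04 ± 0.19 in DP and 15.32 ± 0.09 in VE sp. Igf1 was at 10.3 ± 0.92 in non-induced VE sp, 9.88 ± 0.75 in DP, 6.77 ± 1.31 in CD41 sp and 5.65 ± 1.02 in DN. VE sp differed from DN by 4.64 ± 0.73 for Igf1 (limma adjusted p = 5.08e-05). With induction Igf2 rose by 0.27 ± 0.07 on average (adjusted p = 0.0421) and Igf1 changed by 0.10 ± 0.37 (0.962). By fraction the changes of Igf2 were 0.67 in CD41 sp, 0.35 in DN, 0.12 in DP and -0.06 in VE sp, with no test given of a difference among them. None of these passed in limma, except CD41 sp with the block (adjusted p = 0.00724). Of the receptors, Igf2r, which takes IGF2 up for breakdown, rose by 0.54 ± 0.11 on average (adjusted p = 0.00786), while Igf1r, which signals, changed by -0.28 ± 0.12 (0.27). Insr and Insrr, and the insulin genes Ins1 and Ins2, did not pass the detection filter.

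Over the whole list of the IGF axis, 26 of 29 genes were on the array and 15 were tested. On average over fractions 2 rose, Igf2 and Igf2r, and 0 fell in limma. The median change of the 15 was -0.01, against 0 for all genes, where 3.02% were called. With the block Grb10, an adaptor that restrains insulin and IGF receptors, also fell, by -0.30 ± 0.09 (adjusted p = 0.0203, 0.107 without the block). Of 13 further genes that share the IGFBP domain, 10 were on the array and 5 were tested. Wisp1, a matrix-associated CCN protein, rose by 0.45 ± 0.12 on average (limma adjusted p = 0.0421), and the median change of the 5 was -0.11. Igf2 and Wisp1 each lost their call without any 1 of 18 of the 24 arrays (adjusted p up to 0.0897 and 0.091), whereas Igf2r remained called in all 24 such fits. Igf2r did lose its call with median scaling, the authors' processed values and without replicate set 2 (limma adjusted p up to 0.541). The arrays that could be left out with the call kept were, for Igf2, non-induced CD41 sp 2, VE sp 3 and DP 1 and induced CD41 sp 2, VE sp 1 and DP 3. For Wisp1 they were non-induced CD41 sp 2, VE sp 3, DP 2 and DN 2 and induced VE sp 2 and DN 1. Between fractions the domain gene Esm1, an endothelial secreted proteoglycan, was 3.15 ± 0.36 higher in non-induced VE sp than in DN (limma adjusted p = 7.33e-07). Wisp1 went the other way in that pair, by -1.52 ± 0.24 (4.09e-05). Ctgf, another CCN protein, differed by -3.00 ± 0.37 between non-induced CD41 sp and DN (3.76e-06). Of the 15 tested IGF axis genes, 5 were called higher and 1 lower in non-induced VE sp than in DN, against 24.7% of tested genes called. Foxo1 differed there by 1.84 ± 0.23 and Irs2 by -2.35 ± 0.46 (limma adjusted p = 2.81e-06 and 0.000595).

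**Figure D4:**
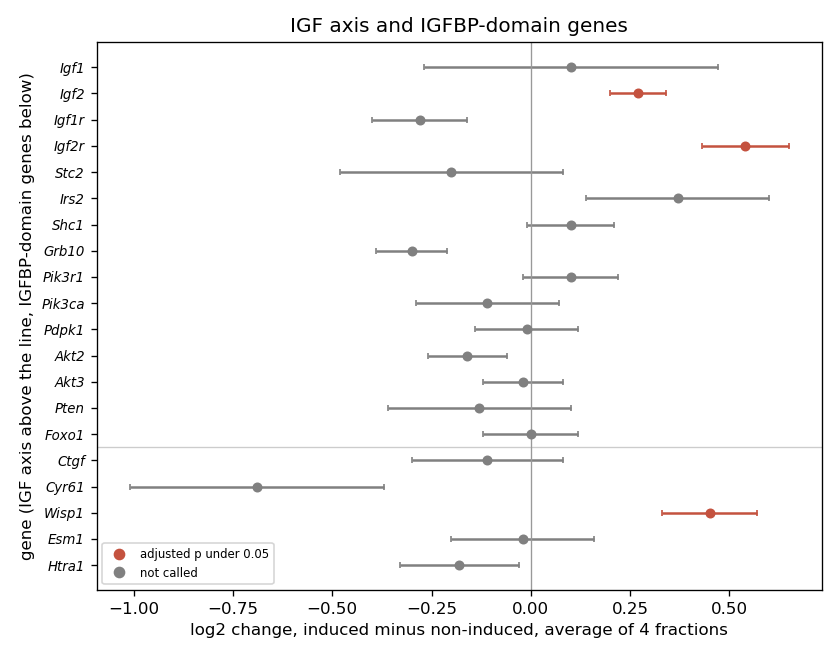
Average log2 change over the 4 fractions, induced minus non-induced, of the 15 tested IGF axis genes and the 5 tested IGFBP-domain genes, with limma's standard error as bars. Red points were called: Igf2r at 0.54, Wisp1 at 0.45 and Igf2 at 0.27.

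Finally, the genes with levels most like each member over the 24 arrays were named. The correlations are descriptions over arrays that share groups and replicate sets. As the arrays include induced and non-induced cells, those of Igfbp5 also hold the rise that it was picked by. For Igfbp5 the genes were Emid2 (Pearson r = 0.929), Cdkn1c, a cell cycle inhibitor (0.922), the homeobox gene Irx5 (0.888), Timp2, an inhibitor of matrix proteases (0.887), and Hey1, a target of Notch signalling (0.881). For Igfbp2 they were the homeobox genes Irx3 (0.947) and Msx1 (0.941), Sulf1 (0.94), Nr6a1 (0.934) and Cacnb3 (0.922). For Igfbp4 they were Grasp and Vim (0.976 each), Ramp2 (0.975), Hyal2 (0.97) and Cklfsf3 (0.968). For Igfbp7 they were the matrix genes Lamb1-1 (0.888), Col5a2 (0.876) and Bgn (0.855), with Lhfp (0.867) and Ccdc3 (0.855). For Igfbp3 they were Slc37a3 (0.894), Sema7a (0.873), Kctd12b (0.861), Npr3 (0.844) and Enpp2 (0.843). No member was among the top 5 of another, and the highest correlation between members was 0.708, between Igfbp3 and Igfbp7, with 0.631 between Igfbp5 and Igfbp7 and 0.211 between Igfbp2 and Igfbp4. The chromosomal neighbours Igfbp2 and Igfbp5 correlated at 0.575.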

How the data were processed

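The raw intensity of each probe was deposited on a linear scale, neither normalised nor background-subtracted per the file headers, in 3 tables of 8 arrays, 1 for each replicate number. Each carried a detection p-value per probe and array, per the file headers. A further table held the authors' processed intensity values on a linear scale, whose method no source used here names. Log2 correlations with the raw values were 0.991 to 1. The medians of its columns spanned 78.66 to 78.73 in set 1, 59.87 to 59.9 in set 2 and 66.86 to 66.92 in set 3, and it was used as an alternative.

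Raw intensities were corrected and quantile-normalised in R 4.3.3 by limma's neqc (version 3.58.1), with the background taken from the detection p-values and an offset of 16. A probe was kept if its detection p fell under 0.05 throughout any 1 group, and the brightest passing probe stood for its symbol (9591 genes, of which 9317 matched a RefSeq table of GRCm38.p6). Group means were fitted on all 24 arrays with lmFit and eBayes, with 8 groups, no block and 16 residual degrees of freedom. The contrasts were induction in each fraction, its average, an F test over the fractions and all 6 pairs of fractions in each condition. Calls were made at a Benjamini-Hochberg adjusted p under 0.05 over all genes, two-sided. The fit without the block was tested on simulated data with independent noise on each array. Those data lack the shared deviations of replicate sets, so they do not show how the fit behaves under them.

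Array deviations from their group means had correlations of 0.288 to 0.773 in the 84 same-number pairs and of -0.623 to 0.0977 in the 168 other pairs, so the numbers in the labels pair the arrays. The fit with the replicate number as a block (14 residual degrees of freedom) is given where it changed the call of a member. For list and marker genes it is given where it changed the call for induction on average. Its other changes to calls of list genes, within or between fractions, are not all given. Alternatives were median scaling, no detection filter, a detection p under 0.01, an offset of 50, the authors' processed values, the mean of passing probes, array weights, only the compared groups and leaving out each array. 2 alternatives, without the 3 arrays under a mean raw intensity of 250 and without replicate set 2, were chosen after seeing the data. The members and lists were chosen with earlier results of these data known. All members are named, as are the ligands and receptors, the list genes called for induction on average, and the 5 genes most correlated with each member. Between fractions only some of the called list genes are named. Tested symbols are those of the array design. The 3 fixed sequence motifs were searched in RefSeq windows; no genome was used.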

Additional observations from a re-analysis of the deposited data

Results flagged for a closer look

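The differences of Igfbp4 between induced and non-induced arrays had opposite signs in VE sp and DP, but neither change passed limma's test (adjusted p = 0.999 and 0.986; 0.725 and 0.257 with the replicate block). The same-numbered differences on the log2 scale were 0.31, 0.04 and 0.22 in VE sp and -0.50, -0.26 and -0.67 in DP, so all 3 were higher in VE sp and all 3 lower in DP. The mean difference of DP minus VE sp was -0.67. The difference between this pair of fractions was not tested on its own, and over all fractions limma's F test gave an adjusted p of 1 (0.479 with the replicate block). On the second Igfbp4 probe the differences were 0.20, -0.01 and 0.22 in VE sp and -0.55, 0.01 and -0.29 in DP, so that replicate 2 did not share the pattern there.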

How the results depend on the processing

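Over 85 comparisons of the 5 detected members, 1423 of 1530 recomputed values stayed on the same side of the threshold or, for Igfbp5 after induction, within the replicate spread; 76 called changes were no longer called, 22 became called, 9 of Igfbp5 moved by more than that spread (lowest 1.11, highest 2.55), and 0 called changes turned sign. The calls for induction within fractions, 0 in all, became 3 with the replicate block and 2 with array weights, and 0 to 1 without 1 array (1 without induced VE sp replicate 2 or 3). The call gained without replicate 2 was in a fraction other than VE sp. For single fractions and pairs, the arrays named above as changing a member's call are only those of the compared groups. The 1 average induction call became 2 with the block and with array weights, and 0 with median scaling, no detection filter, an offset of 50, the authors' processed values, without the 3 arrays under 250 and without replicate set 2; without 1 array it was 0 to 2. For Igfbp7 these fits gave changes of 0.71 to 1.05 with adjusted p = 0.0669 to 0.242. The calls between non-induced fractions, 17, became 10 with median scaling and 9 with the processed values, and were 15 to 18 without 1 array; those between induced fractions, 20, were 17 to 23 in all fits, 18 to 20 without 1 array. The 3 list calls became 0 with median scaling, the processed values and without set 2, 1 without the 3 arrays under 250, and 1 to 3 without 1 array. The block changed no member's call other than those given above. Median scaling moved the median of all genes in non-induced DP against VE sp to 0.30 (0.05 before), with 0.04 in induced cells (0.05 before). It moved the share of rises among average induction calls from 68.3% to 80.3%. Causes were not tested. Detection limits Igfbp2 in CD41 sp and DP and Igfbp7 in CD41 sp, DP and non-induced DN. It also limits Igfbp3, detected on 2 of 3 arrays in non-induced CD41 sp, DP and DN and in induced DP.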
